A study of Mus musculus with 59 samples.

Results

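The 10 genes described here encode subunits of the nucleosome remodelling and deacetylase complex (NuRD). They were chosen by name (Chd3, Chd4, Mta1, Mta2, Mta3, Rbbp4, Rbbp7, Gatad2a, Gatad2b and Mbd3), and all 10 were found among the 24421 genes of the expression table. RNA was measured in cloned mouse embryos from somatic cell nuclear transfer (SCNT): a donor cell nucleus is put into an oocyte stripped of its own, and the oocyte is then activated. The strain label of every library is BDF1, cumulus cells are given as the donor cells, and the protocols name superovulated C57BL/6n females of 5 to 7 weeks as the source of oocytes. Counted from activation, the 4 groups used are 1-cell embryos of 13 to 14 h and early 2-cell embryos of 20 to 21 h, both untreated, and late 2-cell embryos of 33 to 34 h, with trichostatin A (TSA) or untreated. Each group has 5 poly(A) RNA libraries in the labels. All 4 groups are cloned embryos whose polar bodies and zonae were removed, so no fertilized embryo is among them, and the sources used here give neither the dose and duration of TSA nor the embryos per library.

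NuRD joins an ATP-driven chromatin remodeller of the Chd family to a histone deacetylase module built from Hdac1 or Hdac2, an Mta scaffold and the histone-binding proteins Rbbp4 and Rbbp7. Gatad2a or Gatad2b bridges the modules, and Mbd2 and Mbd3 are alternative methyl-CpG-binding-domain subunits that define separate forms of the complex. In the mouse, Mbd3 is needed for pluripotent cells to commit to lineages and Chd4 for early embryonic development. TSA blocks the zinc-dependent deacetylases, to which Hdac1 and Hdac2 belong.

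The table holds a single value per gene and group, as log2(FPKM + 1), where FPKM are fragment numbers adjusted for the length of the transcript and the size of the library. With no replicate values, no difference below has an error, a test or a check between libraries, and sequencing depth is unknown. A difference is the first group's log2(FPKM + 1) minus the second's, and calls of higher or lower need a size of at least 1, or 2-fold on that scale. Of all genes, 13410 had at least 1 FPKM in at least 1 of the 4 columns, and all 10 members did. Chd3 did so only through its 1.04 FPKM in untreated late 2-cell embryos. FPKM are relative to the rest of a column, so a lower value cannot be told apart from a larger pool of other transcripts. Dividing each column by a median-ratio size factor lowered the median difference of all genes between late and early 2-cell embryos by 0.70, so differences of the members across that step are also given relative to the median of all genes. Genes at 1 FPKM or more numbered 9419 in 1-cell, 9477 in early 2-cell, 11912 in TSA-treated late 2-cell and 12215 in untreated late 2-cell embryos. Gapdh, a glycolytic gene that most cells express strongly, was under 1 FPKM in all 4 columns, so a value near 0 can be a failed estimate.

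In RefSeq on GRCm38.p6, the remodeller genes are Chd3 at chr11:69343273-69369499 and Chd4 at chr6:125095980-125130591. The scaffold genes are Mta1 at chr12:113098248-113137206, Mta2 at chr19:8941920-8952300 and Mta3 at chr17:83706163-83823715. The histone-binding genes are Rbbp4 at chr4:129307100-129335370 and Rbbp7 at chrX:162760372-162779090. The bridging genes are Gatad2a at chr8:69907069-69996402 and Gatad2b at chr3:90293181-90363405, and Mbd3 lies at chr10:80392539-80399531. The values are per gene, so exons and isoforms were not told apart.

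The starts of the 3 members that differed most across the stages are shown first, because Mta2 and Mbd3 were higher and Rbbp7 lower in late 2-cell embryos. Each run covers 250 bases before to 50 bases after an annotated transcript start, from RefSeq on GRCm38.p6, the assembly of the mm10 build that the submitters' processing notes name. Capitals mark matches on either strand to the GC box (GGGCGG), the CCAAT box (CCAAT) and the core of ETS-family sites (CCGGAA). The Mta2 run lies at chr19:8941670-8941969 on the plus strand, the Mbd3 run at chr10:80399482-80399781 on the minus strand, and the Rbbp7 run at chrX:162760122-162760421 on the plus strand.
Mta2: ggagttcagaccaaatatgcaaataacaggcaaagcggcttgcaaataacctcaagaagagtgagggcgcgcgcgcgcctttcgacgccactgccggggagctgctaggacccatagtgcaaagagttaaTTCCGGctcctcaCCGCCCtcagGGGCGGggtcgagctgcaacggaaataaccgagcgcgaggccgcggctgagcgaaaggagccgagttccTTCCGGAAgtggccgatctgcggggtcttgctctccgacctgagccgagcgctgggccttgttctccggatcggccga
Mbd3: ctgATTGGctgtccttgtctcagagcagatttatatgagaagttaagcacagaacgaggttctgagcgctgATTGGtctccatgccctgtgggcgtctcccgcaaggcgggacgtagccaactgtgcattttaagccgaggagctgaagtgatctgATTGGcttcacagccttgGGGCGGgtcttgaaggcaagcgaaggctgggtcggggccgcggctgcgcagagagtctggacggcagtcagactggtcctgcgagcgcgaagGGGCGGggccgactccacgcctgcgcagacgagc
Rbbp7: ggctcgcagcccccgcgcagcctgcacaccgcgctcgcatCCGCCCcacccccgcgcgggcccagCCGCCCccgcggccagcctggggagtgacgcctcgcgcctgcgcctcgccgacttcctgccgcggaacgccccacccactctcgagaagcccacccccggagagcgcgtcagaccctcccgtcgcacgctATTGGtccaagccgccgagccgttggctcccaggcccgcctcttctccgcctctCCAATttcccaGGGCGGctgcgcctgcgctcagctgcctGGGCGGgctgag
The Mta2 run holds 2 GC boxes, 0 CCAAT boxes and 3 ETS cores, of which an overlapping pair is 1 palindromic stretch read on both strands. The Mbd3 run holds 2 GC boxes, 3 CCAAT boxes and 0 ETS cores, and the Rbbp7 run holds 4 GC boxes, 2 CCAAT boxes and 0 ETS cores. Over 32851 mouse promoter windows of the same length, 35.7% held a GC box, 37.4% a CCAAT box and 14.9% an ETS core. The 3 windows hold 30, 22 and 38 CpG dinucleotides in the order printed, against a median of 7 over all windows. A window was found for 8 of the 10 members, with 11 windows in all and a median of 26 CpG. The motifs shared by all 3 windows are GC boxes, and no chromatin or binding measurement was set against these windows.

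The Mta scaffold genes differed in their proportions across the stages. Mta2 had 0.763 FPKM in 1-cell, 2.66 in early 2-cell, 82.8 in TSA-treated late 2-cell and 60.8 in untreated late 2-cell embryos. It was low before the late 2-cell stage and high in both late columns, 22.8-fold higher in untreated late than in early 2-cell embryos in plain FPKM. Its difference there was 4.08, or 3.24 above the median of all genes, and only 2.39% of the genes tested had a larger one. Mta3, another scaffold of the same family, was already abundant, at 35.03 FPKM in 1-cell, 39.6 in early 2-cell, 54.96 in TSA-treated late 2-cell and 50.6 in untreated late 2-cell embryos. Mta1, the founding member of the family, was low throughout, at 0.921, 2.05, 3.20 and 3.57 FPKM in the same order of groups. Between late and early 2-cell embryos Mta3 differed by 0.34 and Mta1 by 0.58, which is -0.50 and -0.25 relative to the median of all genes. Mta2 held 52.9% of the summed Mta FPKM in untreated late 2-cell embryos, against 6.01% in early 2-cell embryos. Mta3 held 44.0% in untreated late 2-cell embryos, against 89.4% in early 2-cell embryos. Such shares do not change when a whole column is rescaled.

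Rbbp7 and Rbbp4 encode closely related WD40 proteins that bind histones and also serve in other chromatin complexes, and their levels were far apart. Rbbp7, on the X chromosome, had 1259 FPKM in 1-cell, 1341 in early 2-cell, 316 in TSA-treated late 2-cell and 217 in untreated late 2-cell embryos. It was high in the earlier columns and lower in both late columns, at 0.162 of its early 2-cell value in untreated late 2-cell embryos. The difference was -2.62, which is -3.46 relative to the median of all genes, and 1.31% of the genes tested had a lower one. Even so, Rbbp7 was the most abundant member in every column, above 99.5% of genes with at least 1 FPKM in early 2-cell and above 96.6% in untreated late 2-cell embryos. Rbbp4 had 3.12 FPKM in 1-cell, 1.64 in early 2-cell, 6.96 in TSA-treated late 2-cell and 4.73 in untreated late 2-cell embryos. Its share of the summed FPKM of the pair was 2.13% in untreated late 2-cell and 0.122% in early 2-cell embryos. The difference of Rbbp4 between late and early 2-cell embryos was 1.12, or 0.28 relative to the median of all genes, but 0.38 with median-ratio scaling and -0.0014 with quantile normalization. The 3' end of Rbbp7 overlaps Txlng by 174 bases in RefSeq. Whether the counting used strand is not given in the sources used here, so reads in that stretch cannot be told apart. Txlng had 242, 157, 50.8 and 65.3 FPKM in the same order of groups, and its part in the Rbbp7 values was not tested. Rbbp4 likewise overlaps Sync by 2284 bases, and Sync was at 1.34 FPKM in TSA-treated late 2-cell embryos and lower in the other columns.

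Mbd3, the methyl-CpG-binding-domain subunit among the members, had 5.86 FPKM in 1-cell, 6.72 in early 2-cell, 38.2 in TSA-treated late 2-cell and 29.4 in untreated late 2-cell embryos. Both late columns lay above both earlier ones, and the difference between untreated late and early 2-cell embryos was 1.98, or 1.14 above the median of all genes. A larger difference was found in 22.2% of the genes tested, so Mbd3 stood less far out than Mta2. Mbd2, its alternative in the complex, had 10.8, 11.3, 9.51 and 9.25 FPKM in the same order of groups. Its difference between late and early 2-cell embryos was -0.26, or -1.10 relative to the median of all genes, and it was -1.17 with median-ratio scaling and -1.33 with quantile normalization, past the size for a call. Mbd3 held 76.1% of their summed FPKM in untreated late 2-cell embryos, against 37.3% in early 2-cell embryos.

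The remodeller genes were carried by Chd4 in every column. Chd4 had 11.5 FPKM in 1-cell, 10.8 in early 2-cell, 5.35 in TSA-treated late 2-cell and 10.3 in untreated late 2-cell embryos. As deposited, the 3 untreated columns were close together and the TSA column was the lowest. Relative to the median of all genes, Chd4 was lower by -0.89 in late than in early 2-cell embryos, although its own difference was -0.05. That difference was -0.97 with median-ratio scaling and -1.13 with quantile normalization, the latter past the size for a call. Chd3, an alternative remodeller, had 0.353, 0.135, 0.663 and 1.04 FPKM in the same order of groups, and values this low are understated on the log2(FPKM + 1) scale. Its difference between late and early 2-cell embryos was 0.85, or 0.01 relative to the median of all genes. Chd4 held 87.5% of the summed FPKM of Chd3, Chd4 and Chd5 in TSA-treated late 2-cell embryos and 89.9% in untreated ones. Chd5, best known from the nervous system and testis, lay between 0.103 and 0.169 FPKM in the 4 columns.

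Of the p66 bridging genes, Gatad2a already differed between early 2-cell and 1-cell embryos. Gatad2a had 61.9 FPKM in 1-cell, 16.5 in early 2-cell, 23.7 in TSA-treated late 2-cell and 28.4 in untreated late 2-cell embryos. It was highest in the 1-cell column, and its difference between early 2-cell and 1-cell embryos was -1.85, with 0.75% of the genes tested lower. Gatad2b had 64.2, 40.2, 51.3 and 44.3 FPKM in the same order of groups. Between late and early 2-cell embryos Gatad2a differed by 0.75 and Gatad2b by 0.14, which is -0.09 and -0.70 relative to the median of all genes. The p66 genes were thus near equal in 1-cell embryos, where Gatad2b held 50.9% of their sum, and less equal in early 2-cell embryos, where it held 70.9%.

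**Figure D1:**
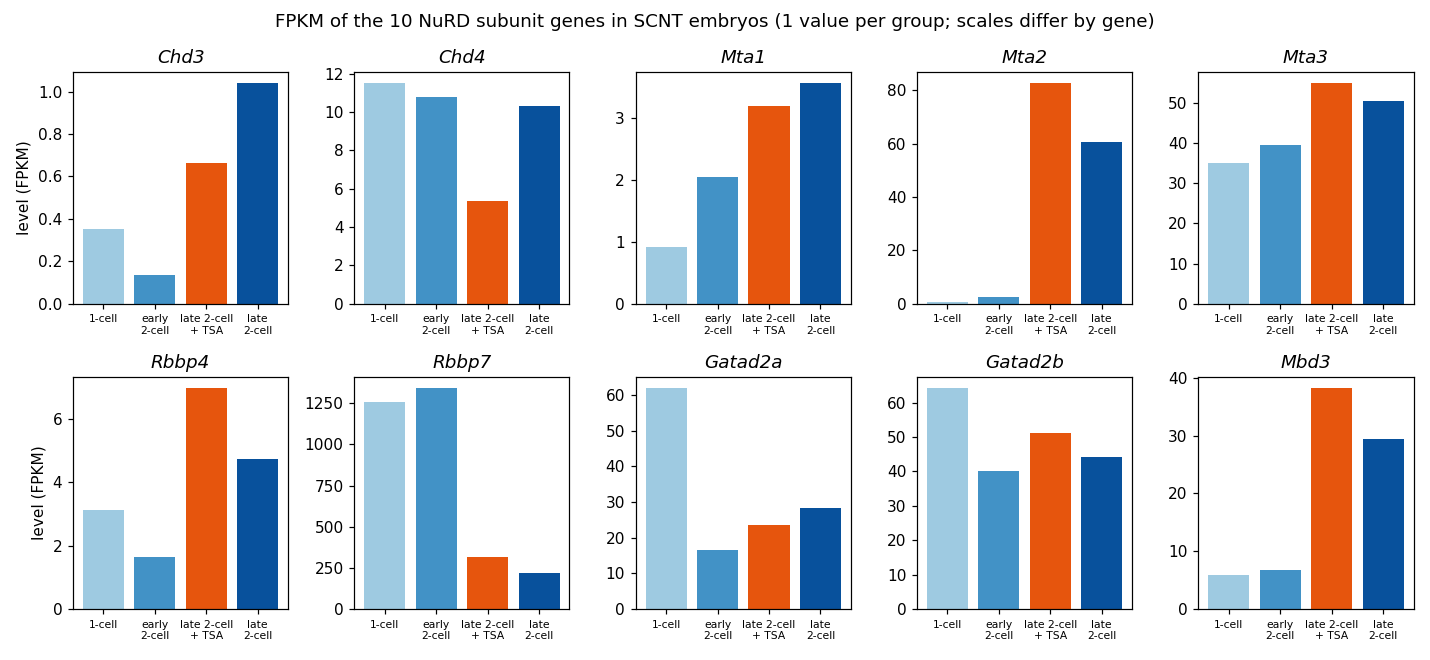
Each panel plots the FPKM of a NuRD subunit gene (y axis, linear, from 0, with its own scale) in 1-cell, early 2-cell, TSA-treated late 2-cell and untreated late 2-cell SCNT embryos (x axis), and each bar is the single value of a group with no error. Mta2 and Mbd3 are high in both late columns, Rbbp7 is high in both earlier ones, Gatad2a is highest at 61.9 FPKM in 1-cell embryos, and Chd4 is lowest at 5.35 FPKM with TSA.

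The count of members called was set against all genes for each stage step. Between late and early 2-cell embryos, 3 of 10 members were called higher (Mta2, Mbd3 and Rbbp4), while 45.7% of all genes tested were. At the same step 1 of 10, Rbbp7, was called lower, against 10.4% of all genes. The median difference of the members was 0.67, against 0.84 over all genes, and 4 of 10 lay above that median. The members as a group were therefore not more often higher than genes in general at this step. Signs depended on the scaling for Mta1, Mta3, Rbbp4, Gatad2a and Gatad2b. Chd4, Mta2, Rbbp7 and Mbd3 had the same sign as deposited, with median-ratio scaling and with quantile normalization. Chd3 kept its sign too, but it passed the filter only through the untreated late column and fell below it under both scalings. Its sign is thus no separate support. Under both scalings Mta2 and Mbd3 were called higher and Rbbp7 lower.

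Between early 2-cell and 1-cell embryos, 1 of 10 members was called higher (Mta2, 1.05), against 2.8% of all genes. At the same step 1 of 10 was called lower (Gatad2a), against 5.37% of all genes. The median difference was 0.00 for the members and -0.03 for all genes. The call of Mta2 rests on values near 1 FPKM, and its difference was 1.68 with a pseudocount of 0.1 FPKM and 0.41 with a pseudocount of 5 FPKM. Mta1 differed by 0.67, while Rbbp4 and Gatad2b differed by -0.64 and -0.66.

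Over the whole span, untreated late 2-cell embryos were also set against 1-cell embryos. Mta2 (5.13), Mbd3 (2.15) and Mta1 (1.25) were called higher, 3 of 10 against 43.9% of all genes. Rbbp7 (-2.53) and Gatad2a (-1.10) were called lower, 2 of 10 against 13.2% of all genes. The median difference was 0.50 for the members and 0.78 for all genes. The call of Mta1 was lost with a pseudocount of 5 FPKM (0.53), with median-ratio scaling (0.65) and with quantile normalization (0.20). Gatad2b was also called lower with median-ratio scaling (-1.42), and Chd4 with quantile normalization (-1.05). The summed FPKM of the 10 members was 450 in untreated late 2-cell embryos, against 1443 in 1-cell embryos. Their ratio was 0.312 as deposited, 0.165 with median-ratio scaling and 0.316 with quantile normalization. Without Rbbp7 the sum was 233 in untreated late 2-cell embryos, against 184 in 1-cell embryos, but that direction turned under both scalings, with a ratio of 1.27 as deposited, 0.672 with median-ratio scaling and 0.865 with quantile normalization.

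**Figure D2:**
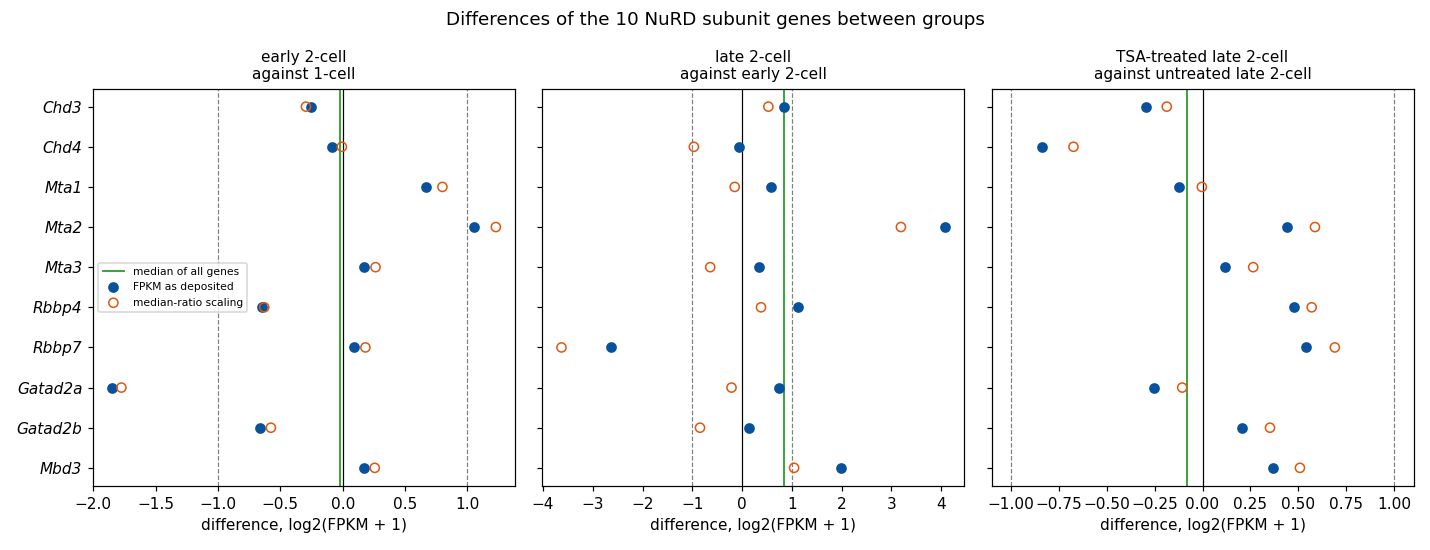
Filled points give the difference in log2(FPKM + 1) (x axis) of each NuRD subunit gene (rows) for early 2-cell against 1-cell, late against early 2-cell, and TSA-treated against untreated late 2-cell embryos, and open points give it after median-ratio scaling; green lines mark the median of all genes and dashed lines a difference of 1. Mta2 (4.08) and Rbbp7 (-2.62) stand apart in the middle panel, where Mta1, Mta3, Gatad2a and Gatad2b change sign under median-ratio scaling. Rbbp4 changes sign there only under quantile normalization, which is not plotted. No member passes a difference of 1 with TSA.

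TSA-treated embryos were set against untreated ones at the late 2-cell stage, to describe NuRD genes after exposure to an inhibitor of NuRD deacetylases. Whether those deacetylases were still inhibited at collection was not measured here. None of the 10 members was called, as 0 were higher, against 2.39% of all genes, and 0 lower, against 3.88%. There is no replicate test at this step, so the 0 says only that no difference reached 1. The largest difference as deposited was that of Chd4, -0.84, at 5.35 FPKM with TSA and 10.3 FPKM without, or 0.517 of the untreated value. It was -0.67 with median-ratio scaling and -0.77 with quantile normalization, and 6.50% of the genes tested had a lower difference. Median-ratio scaling moved the median difference of all genes with TSA by 0.12, and 9 of 10 members, all but Mta1, kept their sign under both scalings. For Chd3 this is no separate support, because it passed the filter only through the untreated late column. Rbbp7 differed by 0.54, at 316 against 217 FPKM, and by 0.69 with median-ratio scaling, where its difference was larger in size than that of Chd4. Rbbp4 was at 6.96 against 4.73 FPKM (0.47), Mta2 at 82.8 against 60.8 FPKM (0.44) and Mbd3 at 38.2 against 29.4 FPKM (0.37). Of these higher values, that of Rbbp7 with TSA was nearer to the earlier stages than the untreated value was, whereas those of Mta2 and Mbd3 with TSA were farther from them. This comparison shares the untreated late 2-cell column with the late against early comparison, so a high or low value there enters both.

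The remaining members differed by less with TSA. Gatad2b was at 51.3 against 44.3 FPKM (0.21) and Mta3 at 54.96 against 50.6 FPKM (0.12). Gatad2a was at 23.7 against 28.4 FPKM (-0.25), Chd3 at 0.663 against 1.04 FPKM (-0.30) and Mta1 at 3.20 against 3.57 FPKM (-0.12, with a sign that depended on the scaling). The median of the members was 0.16 against -0.08 over all genes, with 6 of 10 above 0. No paralog family of the complex had a different leading gene with TSA than without.

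Hdac1 and Hdac2, the catalytic deacetylases of the complex and targets of TSA, belong to a list of related genes. Hdac1 had 1.14 FPKM in 1-cell, 1.78 in early 2-cell, 53.2 in TSA-treated late 2-cell and 35.6 in untreated late 2-cell embryos. Hdac2 had 26.3, 28.1, 17.3 and 23.5 FPKM in the same order of groups. Between late and early 2-cell embryos the difference was 3.72 for Hdac1 and -0.25 for Hdac2, which is 2.88 and -1.09 relative to the median of all genes. For Hdac2 it was -1.22 with median-ratio scaling and -1.10 with quantile normalization, both past the size for a call. Hdac1 held 75.5% of their summed FPKM in TSA-treated late 2-cell embryos and 60.2% in untreated ones. In early 2-cell embryos Hdac1 held 5.97%. RefSeq lists a pseudogene of Hdac1, and how reads shared with it were assigned is not given in the sources used here. Of the 6 paralog families compared (Chd, Mta, Rbbp, Gatad2, Mbd and Hdac), 3 had another leading gene in late than in early 2-cell embryos, namely Mta2 in place of Mta3, Mbd3 in place of Mbd2, and Hdac1 in place of Hdac2. Between early 2-cell and 1-cell embryos 0 of 6 did.

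**Figure D3:**
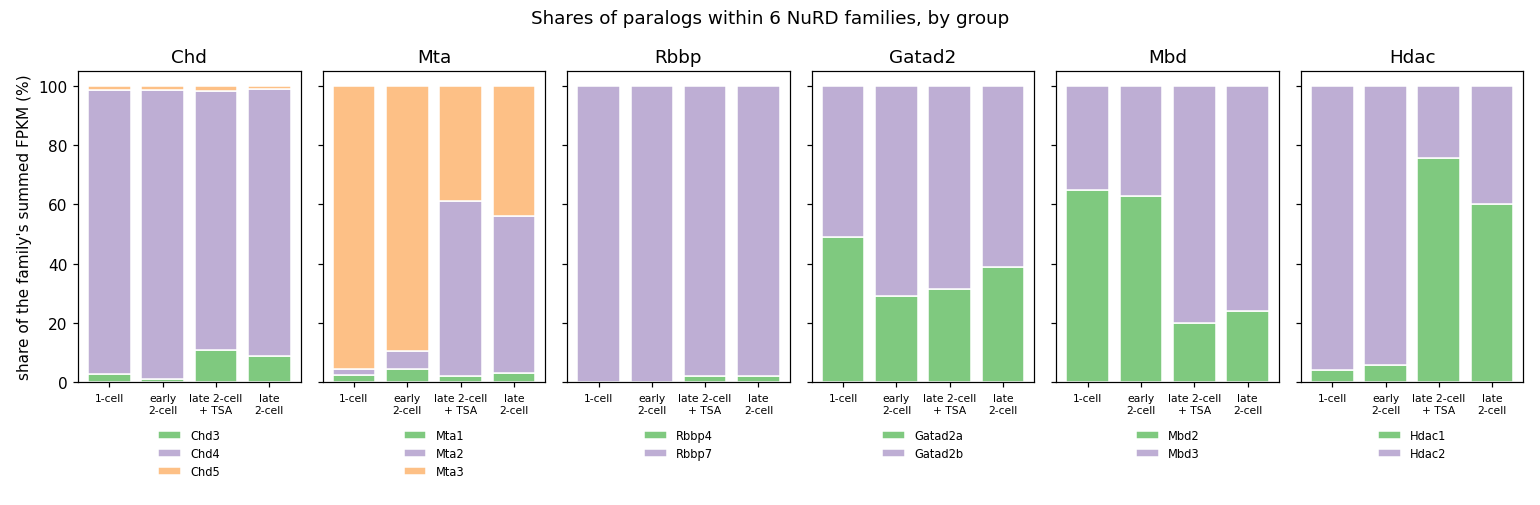
Stacked bars show each paralog's share of its family's summed FPKM (y axis, percent) in 1-cell, early 2-cell, TSA-treated late 2-cell and untreated late 2-cell SCNT embryos (x axis), from single values per group with no error. Mta2 holds 52.9%, Mbd3 76.1% and Hdac1 60.2% of their families in untreated late 2-cell embryos, against 6.01%, 37.3% and 5.97% in early 2-cell embryos, while Chd4 and Rbbp7 lead theirs throughout.

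Other genes linked to NuRD were taken from 7 lists of 70 genes, of which 61 passed the filter. Between late and early 2-cell embryos 22 of 61 were called higher and 6 of 61 lower, a share of 36.1% and 9.84% against the 45.7% and 10.4% over all genes given above. This balance turned over under both scalings, with 12 higher and 23 lower after median-ratio scaling and 9 higher and 23 lower after quantile normalization. Called higher in all 3 cases were 9 genes (Arid4b, Bcl11a, Cdk2ap1, Chaf1b, Chd1, Hdac1, Ing1, Phf21a and Srcap), while the other 13 called higher were not called under 1 or both scalings. Bcl11a, at 0.0238 FPKM in early and 3.62 FPKM in untreated late 2-cell embryos, passed the filter only through the late columns. The same holds for Bend3, Chd2 and Rcor2, so the calls of these genes are no separate support for a difference. All 6 called lower were also called lower under both scalings. The smallest calls, those of Chd8 (1.02), Arid4a (1.04), Hmg20b (1.06) and Zmynd8 (1.10), lie close to the median of all genes, 0.84. Among further NuRD subunits, Cdk2ap1 was higher, at 230 FPKM in late against 5.31 FPKM in early 2-cell embryos. Its relative Cdk2ap2 was abundant throughout, at 366 FPKM in 1-cell, 695 in early 2-cell, 386 in TSA-treated late 2-cell and 383 in untreated late 2-cell embryos. Of the accessory partners, Pwwp2a, Zmynd8, Bend3 and Cbx3 were called higher and Cbx1 lower. Mbd3l2, of a family of Mbd3-like proteins that in human cells oppose NuRD silencing of DUX4, had 81.4, 73.7, 66.5 and 41.05 FPKM in the same order of groups.

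Genes of neighbouring deacetylase complexes differed in both directions at that step. In the Sin3 complex, which also holds Hdac1, Hdac2, Rbbp4 and Rbbp7, Brms1, Arid4a, Arid4b and Ing1 were called higher and Sap30 lower, the last at 61.01 FPKM in late against 830 FPKM in early 2-cell embryos. In CoREST and MiDAC, Rcor1, Rcor2, Hmg20b, Phf21a and Trerf1 were called higher, and Kdm1a, the histone demethylase of CoREST, was lower, at 8.80 against 26.8 FPKM. Of the other complexes that hold Rbbp4 or Rbbp7, the Polycomb genes Ezh2 and Eed were lower. Ezh2 was at 45.1 FPKM in late against 315 FPKM in early 2-cell embryos, and Eed at 48.9 against 260 FPKM. Chaf1b, of the chromatin assembly factor, was higher, at 36.6 against 5.54 FPKM. Among other remodelling ATPases, Chd1, Chd2, Chd8, Ino80 and Srcap were called higher. Of the proteins that recruit NuRD, Bcl11a was called higher and Trps1 lower. Of the genes higher in these complexes and groups, only Arid4b, Ing1, Phf21a, Chaf1b, Chd1, Srcap and Bcl11a were also called higher under both scalings. Among these, Bcl11a passed the filter only through the late columns.

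With TSA, 3 of the 61 related genes were called higher and 0 lower, against 2.39% and 3.88% of all genes. Sall4, a zinc-finger protein that binds NuRD, differed by 1.02, at 156 against 76.2 FPKM. Its 1-cell value was 178 FPKM and its early 2-cell value 152 FPKM, so the untreated late column was the lowest of the 4. Adnp, which forms a separate complex with Chd4, was at 2.21 against 0.0346 FPKM, and Dnttip1, of MiDAC, at 6.77 against 2.60 FPKM. Adnp was also near 0 in 1-cell (0.00717 FPKM) and early 2-cell embryos (0 FPKM). In these and in the untreated late column a failed estimate cannot be told apart. Adnp passed the filter only through its value with TSA, so it is among the 61 genes only because it is high there. With a pseudocount of 5 FPKM, 0 related genes were called higher with TSA. In the other lists the largest differences with TSA were those of Hdac1 (0.57) and Hdac2 (-0.42), Sap130 (-0.59) and Brms1 (0.56), Ezh2 (0.60) and Chaf1a (0.59), and Smarca2 (-0.66) and Chd2 (-0.38). Bcl6 (-0.90), Trerf1 (-0.84) and Mbd3l2 (0.68) completed the leading pairs of their lists.

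Across the other stage steps few further related genes were called. Between early 2-cell and 1-cell embryos 0 of 61 were called higher and 2 of 61 lower, Zfp281, a zinc-finger factor, and Hat1, a histone acetyltransferase that works with Rbbp7. Zfp281 had 7.78 FPKM in 1-cell, 0.263 in early 2-cell and 0.512 in untreated late 2-cell embryos. At its lower values a failed estimate cannot be told apart. Between late 2-cell and 1-cell embryos 23 of 61 were called higher and 10 of 61 lower, against the 43.9% and 13.2% of all genes. Those called there but not at the late against early step were Zbtb7a, Sap30l, Sap130 and Smarca4, all higher as deposited but not called higher under 1 or both scalings, and Sall4, Zfp281, Bptf, Chd6 and Atrx, all lower in each case. Zbtb7a passed the filter only through the late columns, and Zfp281 only through the 1-cell column.

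**Figure D4:**
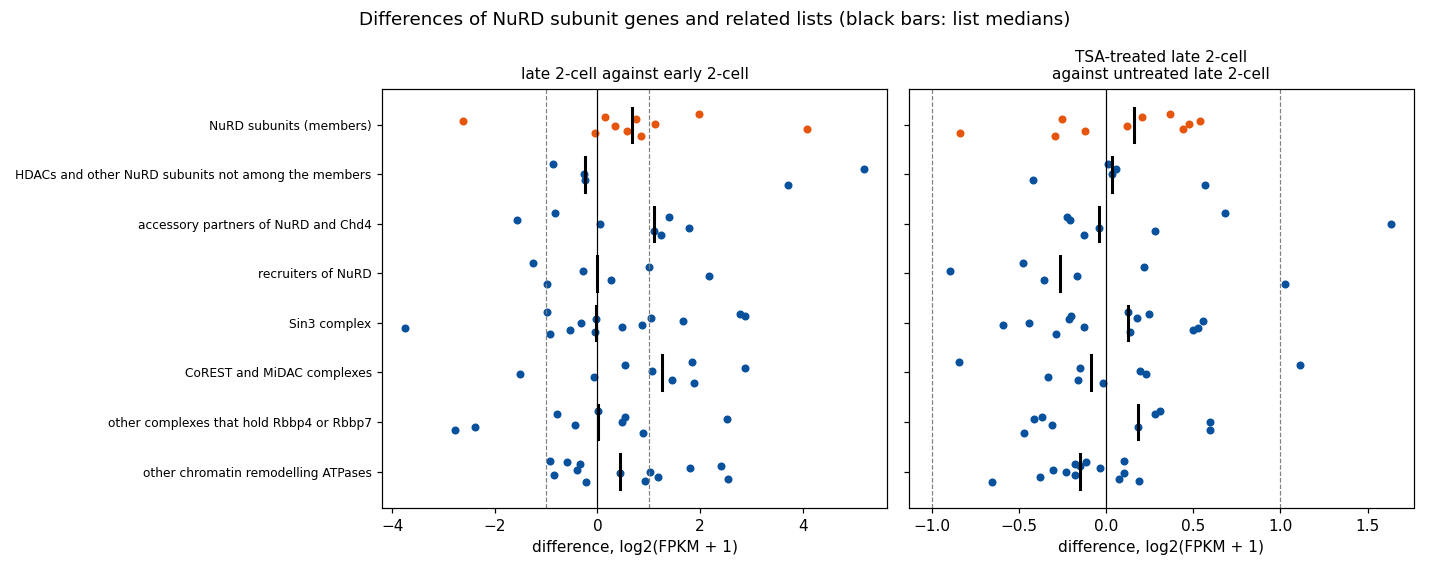
Points give the difference in log2(FPKM + 1) (x axis) of single genes of the NuRD subunits and of 7 related lists (rows), for late against early 2-cell embryos on the left and TSA-treated against untreated late 2-cell embryos on the right; black bars mark list medians and dashed lines a difference of 1. The lists spread to both sides of 0 on the left, where sign depends on the scaling for genes near 0, and with TSA 3 related genes pass 1 (Adnp, Dnttip1 and Sall4). Of these, Adnp passed the filter only through its value with TSA.

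Genes with a profile most like that of Mta2, the member with the widest range, were looked for among 8614 named genes with at least 5 FPKM in a column. Likeness was the Euclidean distance between log2(FPKM + 1) values centred over the 4 columns, which is a description of 4 values. The nearest were Zbtb8a (0.10), Fblim1 (0.19), BC003965 (0.19), Gabpa (0.20) and Asna1 (0.27). Zbtb8a, a zinc-finger gene, had 0.534 FPKM in 1-cell, 2.18 in early 2-cell, 66.3 in TSA-treated late 2-cell and 50.5 in untreated late 2-cell embryos. Gabpa, an ETS-family transcription factor, had 0.636, 1.83, 69.99 and 48.8 FPKM in the same order of groups. These profiles share with Mta2 low values in both earlier columns and somewhat higher values with TSA than without.

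Markers of other cells were measured beside these results. Of 14 cumulus and granulosa markers, 5 or 6 reached 1 FPKM in each column, and their summed level was 28.3 FPKM in 1-cell, 27.9 in early 2-cell, 33.6 in TSA-treated late 2-cell and 87.4 in untreated late 2-cell embryos. Most of the late values came from Anxa2, at 23.6 FPKM with TSA and 67.0 FPKM without, and Lgals1 was at 1.28 against 9.06 FPKM and Fshr was listed at 0 with TSA, against 1.64 FPKM without. Cyp19a1, the aromatase of granulosa cells, ran the other way across the stages, at 8.31 FPKM in 1-cell, 6.26 in early 2-cell, 1.70 in TSA-treated late 2-cell and 0.498 in untreated late 2-cell embryos. Of Foxl2, Amh, Inha and Inhba, the highest value in a column was that of Amh, 0.297 FPKM. The part of such cells in the difference of Chd4 and other members between TSA-treated and untreated embryos was not tested. Of 10 oocyte markers all reached 1 FPKM in each column, with sums of 3282, 2559, 1010 and 1494 FPKM in the same order of groups. Of 9 measured markers of the 2-cell embryo the sums were 175, 269, 577 and 379 FPKM. Tcstv1 gave most of the earlier sums, at 139 FPKM in 1-cell and 203 in early 2-cell embryos. With TSA, Usp17lb was at 276 against 110 FPKM without, the largest difference in FPKM among these markers. Zscan4c (3.29 against 5.29 FPKM), Zscan4d (5.81 against 7.02) and Tcstv1 (27.2 against 36.8) were lower with TSA, and the other measured markers higher. The oocyte sum was carried by Bmp15 and Oosp1 and was lower in the late columns, as Rbbp7 was, but within the late columns it was lower with TSA, where Rbbp7 was higher. Single markers differed in direction, as Zp1 was at 40.3 FPKM in untreated late against 18.6 FPKM in early 2-cell embryos and Zp3 at 101 against 27.9 FPKM, while Gdf9 was at 63.1 against 61.3 FPKM. Their part in the stage differences was not tested.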

How the data were processed

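RNA of SCNT mouse embryos was analysed in 20 libraries of 4 groups. The 35 chromatin libraries and the 4 RNA libraries of Dux-injected embryos were not analysed here. The authors deposited log2(FPKM + 1), which the file headers name. The submitters' processing notes name mm10, HISAT2 2.1.0, StringTie 1.3.4, SAMtools 1.7 and Cufflinks with no role. How 5 libraries became 1 column is not given in the sources used here. The 1-cell column is named by 13 h, so its match rests on the collection time. The table has 2 further value columns with no matching RNA library, which were left out. FPKM were recovered from the log2 values in Python 3.11.15 with pandas 2.3.3. Planned limma fits need replicates, so differences are described by size. The code of the call rule and of both scalings was checked on simulated data without noise, which says nothing about how reliable the calls are. Members, lists and motifs were chosen with earlier results of these data known. Related genes were named if called in any comparison or among the 2 largest differences of their list with TSA, with Hdac1, Hdac2 and Mbd2 always named. All 10 members and 69 of 70 related genes matched RefSeq symbols. Alternatives were pseudocounts of 0.1 and 5 FPKM, no filter, a filter of 5 FPKM, median-ratio scaling and quantile normalization.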

Additional observations from a re-analysis of the deposited data

How the results depend on the processing

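No paired analysis was possible because the table holds 1 value per group, and leaving out replicates was likewise not run. Values without replicates were counted as moved when a median shifted by over 0.25 or changed sign, or when a count differed by over 1.5-fold. With a pseudocount of 0.1 FPKM, 2 members were called higher in early 2-cell against 1-cell embryos (median -0.0028), with 2 related genes higher, and 2 related genes were lower with TSA. With a pseudocount of 5 FPKM, 0 members were higher at the first step and 0 related genes with TSA, and the member medians were 0.30 for late against early 2-cell and 0.22 for late 2-cell against 1-cell, with 12 and 15 related genes higher. The filter of 5 FPKM kept 8 members, without Chd3 and Mta1, and gave a median of 0.17 for late 2-cell against 1-cell. Under each of the 2 scalings 9 members passed the filter, without Chd3, so the medians that follow are not over the same 10 genes. Median-ratio scaling gave medians of -0.21 (late against early) and -0.38 (late against 1-cell), with 12 and 12 related genes higher and 23 and 25 lower, and 1 related gene higher at the first step. Quantile normalization gave medians of -0.32 and -0.60, with 9 and 12 related genes higher and 23 and 22 lower, 2 members lower at the late against early step (Rbbp7 and Chd4), and a reversed Rbbp4 difference of -0.0014. Over all genes the calls higher made up 81.4% of calls for late against early 2-cell embryos, 54.1% with median-ratio scaling and 49.1% with quantile normalization. For TSA they made up 38.1%, 61.2% and 53.8%, for early 2-cell against 1-cell 34.3%, 44.4% and 47.3%, and for late 2-cell against 1-cell 76.8%, 52.5% and 47.6%. Counts of all genes called higher and lower with TSA were 320 and 520 as deposited, 668 and 1217 with a pseudocount of 0.1 FPKM, 89 and 92 with 5 FPKM, 186 and 309 with the filter of 5 FPKM, 367 and 233 with median-ratio scaling and 347 and 298 with quantile normalization. For early 2-cell against 1-cell they were 376 and 720, then 1203 and 1519 and 90 and 334 with the pseudocounts. For late against early 2-cell they were 6128 and 1399, then 3556 and 847 with 5 FPKM added, 3758 and 3188 with median-ratio scaling and 3378 and 3508 with quantile normalization. For late 2-cell against 1-cell they were 5883 and 1774, then 3429 and 1133, 3810 and 3450, and 3413 and 3763 in that order of settings. The causes were not tested. The paralog shares moved by under 10 percentage points under quantile normalization, and each summed level by under 1.5-fold under both scalings, although the ratio of the sums between late 2-cell and 1-cell embryos moved as given above. Depth is unknown, so no interval or detection limit can be given.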
